A study of Danio rerio with 8 samples.

Results

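The transporters that carry glucose and monocarboxylates across membranes were followed in retinas of zebrafish *bbs2* mutants. Members are the rows of the deposited gene count table whose symbol begins with slc2a or slc16a followed by a number, in lower case. There are 33 of these among 32520 genes, 17 of the slc2a family and 16 of the slc16a family. All 33 identifiers are also listed in a separate table of gene names. RNA was taken from whole retinas of 4 *bbs2* -/- homozygous mutants and 4 *bbs2* +/+ wild-type siblings, offspring of heterozygous carriers and of both sexes. Every fish was 6 months old and had been kept in the dark for 16 to 20 h before death, so both groups share the dark adaptation. Each library holds a pair of pooled retinas dissected with little pigment epithelium, and the comparison asks which transcripts differ in the mutant retina.

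Glucose enters most cells through the facilitative carriers of the slc2a (GLUT) family, and lactate, pyruvate and ketone bodies cross with protons through several carriers of the slc16a (MCT) family. The vertebrate retina makes much lactate from glucose. The pigment epithelium passes glucose from the choroid to photoreceptors, whose lactate is in turn taken up by pigment epithelium and Müller glia. In mammals GLUT1 serves the pigment epithelium, photoreceptors and glia, GLUT3 serves neurons, and MCT3 lies in the basolateral membrane of the pigment epithelium. A genome duplication in ancestral teleosts left many of these genes with an a and a b copy.

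The sum of all gene counts lay between 6279179 and 8442827 for wild-type libraries and between 7289910 and 11496801 for mutants (ratio of means 1.21, two-sided exact permutation p = 0.2, 4 against 4, where 0.0286 is the smallest p possible; 1.31 and exact permutation p = 0.0286 without mutant 4). The mutated gene *bbs2* stood at 39.8 to 45.5 CPM (counts scaled to a common library size) in wild-type libraries and at 27.3 to 28.8 CPM in mutants. Retinal identity was clear in every library, with *rho*, the rod opsin gene, at 11096 CPM or more. Summed cone markers (24 genes) went from 22812 to 24239 CPM in wild-type libraries to 9855 to 11760 CPM in mutants. Of the 24 cone markers 20 fell and 2 rose at a false discovery rate of 0.05, beside 13% and 15.2% of all tested genes. Those that rose were the opsin genes *opn1lw1* (1064 to 2115 CPM as group means) and *opn1mw3* (208 to 637 CPM). Summed pigment epithelium markers (23 genes) went from 525 to 689 CPM in wild-type libraries to 1913 to 2628 CPM in mutants. Much of the wild-type sum came from *trpm1a* (mean 156.9 CPM) and *trpm1b* (261.7 CPM), the latter also listed among the retinal neuron markers. These genes differed little in mutants (183.5 and 293.9 CPM), so the sum understates the change of the other markers as a group. Summed microglia and macrophage markers (19 genes) went from 66.4 to 97.0 CPM to 286.5 to 379.3 CPM. In such whole-tissue RNA, fewer cells of a type and less RNA per cell cannot be told apart.

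Among the transporters more members rose than fell in *bbs2* mutants. Of the 33 members 24 had enough counts to be tested, and 13 of these rose and 2 fell at a false discovery rate (FDR) of 0.05 over all genes in edgeR's quasi-likelihood test. Of all 17144 tested genes 15.2% rose and 13% fell. Of the genes called, 54.0% were higher in mutants, and 71.35% when library totals replaced the trimmed-mean (TMM) scaling. The median log2 fold change (log2FC, mutant over wild-type) of the tested members was 1.14, and that of all tested genes -0.01. Members that rose by more than 4-fold number 7, where 3.17% of all tested genes did so. The groups did not overlap for 13 members with higher and 3 with lower levels in mutants, where 15.4% and 13.9% of all tested genes had no overlap in these directions.

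The filter on low counts shapes these counts. *slc2a6* and *slc16a6a* passed it through their mutant libraries alone, and both are among the members counted as more than 4-fold higher. In all, 9 of the 24 members had fewer than 4 wild-type libraries past its level of 1.19 CPM. The filter asks for 4 libraries, so these members needed mutant libraries to pass. Besides *slc2a6* and *slc16a6a* they include *slc16a8*, *slc2a12*, *slc2a15b* and *slc16a5a*, whose adjusted p is no independent evidence of a rise. *slc16a8* is also among the members counted as more than 4-fold higher. A member that passes because it is high in one group has to differ, so the 24 are not a neutral sample of the family. When no library could hold fewer than 10 counts of a gene, 15 members were tested, of which 7 rose and 2 fell, and 13.8% of genes under that filter rose and 12.9% fell.

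**Figure D1:**
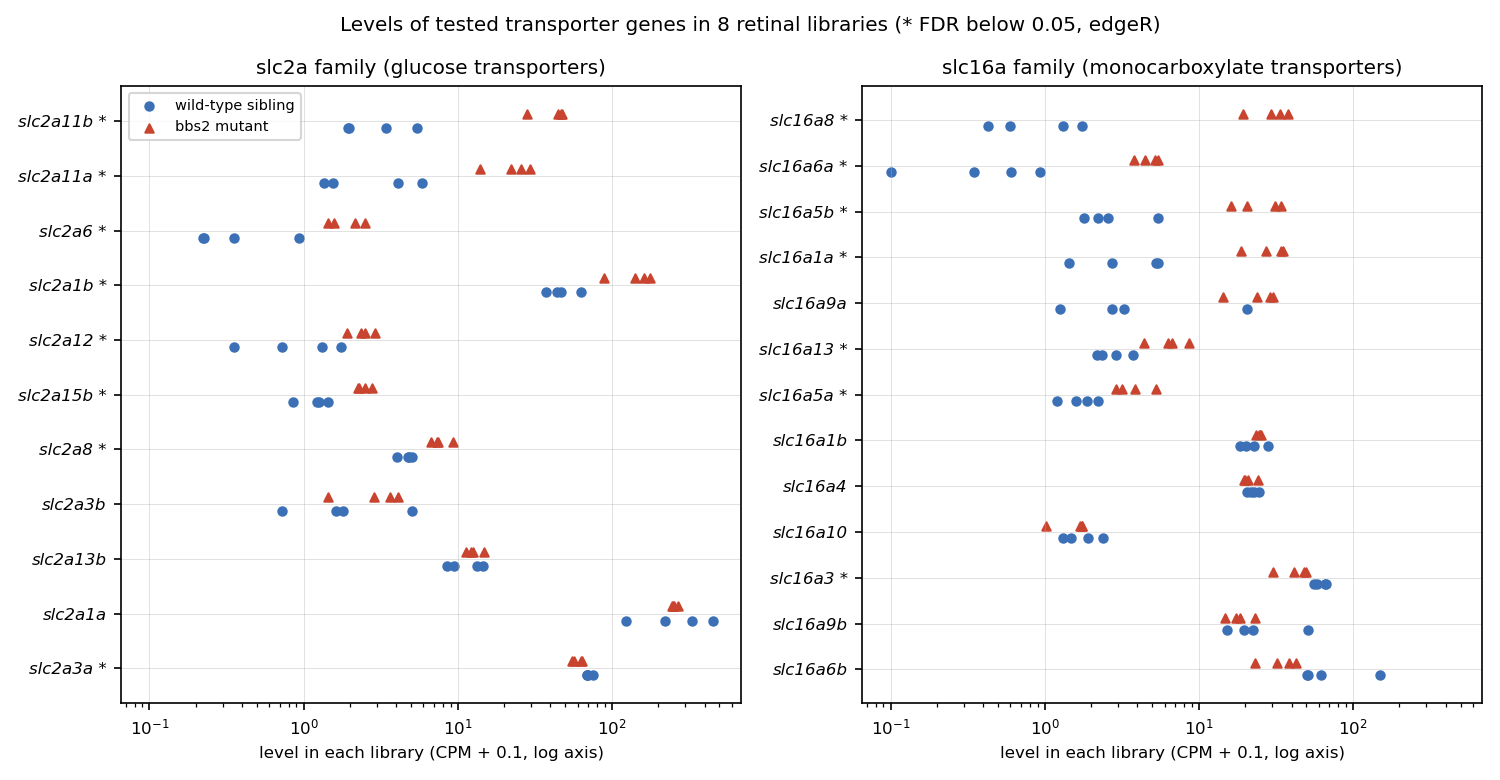
Level of each tested transporter gene in each library, as CPM plus 0.1 on a log axis, with circles for 4 wild-type siblings and triangles for 4 *bbs2* mutants; asterisks mark an FDR below 0.05 and genes are ordered by fold change. For *slc16a8*, at the top right, every mutant is at 19.2 CPM or more and every wild-type library at 1.64 CPM or less.

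Of the 4 class I glucose transporters tested, 1 rose, 1 fell and 2 were not called, where 15.2% of all tested genes rose and 13% fell. *slc2a1b* (ENSDARG00000007412), one of the copies of GLUT1, stood at 62.8, 44.0, 37.4 and 46.6 CPM in wild-type libraries 1 to 4 and at 141.2, 161.0, 88.3 and 177.7 CPM in mutants 1 to 4. Each mutant was above each wild-type library, with mutant 3 the lowest of its group. The gene rose 2.98-fold (log2FC 1.58, SE 0.25, edgeR adjusted p = 0.00303).

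Its copy *slc2a1a* (ENSDARG00000001437) stood at 124.5, 451.9, 329.2 and 222.7 CPM in wild-type libraries and at 244.5, 268.8, 250.7 and 251.8 CPM in mutants. All mutants lay inside the wild-type range. The highest wild-type library held 3.63 times the lowest, against 1.099 times in mutants, so a difference in mean was not detectable (log2FC -0.15, SE 0.37, adjusted p = 0.813). Its sign depends on single libraries and on the unit, since the log2FC was 0.17 without wild-type 2 and 0.0223 on log2(TPM + 0.1), at adjusted p = 0.243 or above under all alternatives.

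*slc2a3a* (ENSDARG00000013295), a copy of the neuronal GLUT3, had a small fall. It stood at 68.8, 75.7, 70.3 and 69.2 CPM in wild-type libraries and at 57.1, 55.0, 63.6 and 62.6 CPM in mutants, with no overlap. The fall was 1.19-fold (log2FC -0.25, SE 0.08, edgeR adjusted p = 0.0238). The call was lost when samples were scaled by library totals (-0.15, adjusted p = 0.184), on log2 TPM (adjusted p = 0.142 and 0.143 with a pseudocount of 0.1 and 1), and without wild-type 2 (0.0713), mutant 1 (0.062) or mutant 2 (0.0828). *slc2a3b*, the other copy, ran from 0.625 to 4.97 CPM in wild-type libraries and from 1.34 to 4.01 CPM in mutants (log2FC 0.48, SE 0.51, adjusted p = 0.542; 1.19 and adjusted p = 0.0691 without wild-type 1, 0.16 and 0.847 without wild-type 2).

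Both tested members of class II rose, where 15.2% of all tested genes did, and by more than any class I gene. *slc2a11b* (ENSDARG00000063288), whose counterpart in birds is known from the pigment of the pigeon iris, stood at 3.32, 1.88, 1.83 and 5.31 CPM in wild-type libraries and at 46.7, 47.6, 28.3 and 44.9 CPM in mutants. The lowest mutant was thus several times the highest wild-type library (13.6-fold over the groups, log2FC 3.77, SE 0.31, edgeR adjusted p = 1.76e-05). *slc2a11a* (ENSDARG00000053961) stood at 3.98, 1.25, 1.46 and 5.81 CPM in wild-type libraries and at 22.2, 25.6, 13.8 and 29.2 CPM in mutants. It rose 7.31-fold (log2FC 2.87, SE 0.45, adjusted p = 0.00205), and in both genes wild-type 4 was the highest of its group and mutant 3 the lowest.

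Members of class III, several of which lie in internal membranes, are low in these retinas. Of the 4 tested 3 were called higher, where 15.2% of all tested genes were, and of these 3 *slc2a6* passed the filter through its mutant libraries alone and *slc2a12* lost its call without single libraries. *slc2a8*, an intracellular carrier in mammals, stood at 4.97, 4.75, 4.64 and 3.92 CPM in wild-type libraries and at 6.58, 7.22, 7.31 and 9.23 CPM in mutants. The groups did not overlap (1.66-fold, log2FC 0.73, SE 0.20, edgeR adjusted p = 0.0106). *slc2a6*, known from lysosomes of mouse macrophages, had 9 counts over the wild-type libraries and 72 over the mutants (log2FC 2.54, SE 0.56, adjusted p = 0.00288; 3.35 without wild-type 1). *slc2a12* had 27 and 90 counts (log2FC 1.33, SE 0.45, adjusted p = 0.0367), a call that ended without any 1 of wild-type 2, wild-type 4, mutant 1, mutant 2 or mutant 4 (adjusted p = 0.0684 to 0.101). As *slc2a12* needed mutant libraries to pass the filter on low counts, its p is no independent evidence of a rise. *slc2a13b*, a copy of the proton-linked myo-inositol carrier, ran from 8.46 to 14.4 CPM in wild-type libraries and from 11.2 to 14.8 CPM in mutants (log2FC 0.15, adjusted p = 0.575).

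*slc2a15b*, of a branch found in fish and needed for the leucophore pigment cells of medaka, stood at 1.16, 1.13, 1.34 and 0.758 CPM in wild-type libraries and at 2.67, 2.41, 2.17 and 2.14 CPM in mutants. The groups did not overlap, and the gene rose 2.13-fold (log2FC 1.09, SE 0.35, edgeR adjusted p = 0.0264). It needed mutant libraries to pass the filter on low counts, so this p is no independent evidence of a rise. Leaving out wild-type 2, wild-type 4, mutant 1 or mutant 2 took the call away (adjusted p = 0.0543 to 0.0784), as did testing without a filter on low counts (0.0569).

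Carriers of lactate and pyruvate included the largest rise of either family and also a fall. *slc16a8* (ENSDARG00000045153), the counterpart of MCT3 of the pigment epithelium, was nearly silent in wild-type libraries, at 0.332, 0.5004, 1.22 and 1.64 CPM, and stood at 29.4, 38.02, 19.2 and 33.7 CPM in mutants. It rose 30.9-fold (log2FC 4.95, SE 0.35, edgeR adjusted p = 1.35e-06), from 29 counts over the wild-type libraries. With fewer than 4 wild-type libraries past the filter on low counts, *slc16a8* needed its mutant libraries to be tested. Its adjusted p is therefore no independent evidence of a rise. *slc16a1a* (ENSDARG00000016963), a copy of the widely used lactate carrier MCT1, stood at 2.65, 5.38, 1.34 and 5.18 CPM in wild-type libraries and at 27.1, 34.1, 18.8 and 34.9 CPM in mutants. It rose 7.77-fold (log2FC 2.96, SE 0.37, adjusted p = 0.000408), and mutant 3 was again the lowest mutant for both genes.

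The other copy of MCT1 did not share this rise. *slc16a1b* (ENSDARG00000068572) stood at 20.1, 18.4, 22.8 and 28.0 CPM in wild-type libraries and at 24.9, 25.3, 23.4 and 24.3 CPM in mutants, which all lay inside the wild-type range (log2FC 0.13, SE 0.13, adjusted p = 0.493). *slc16a3* (ENSDARG00000045051), a gene for MCT4, which exports lactate from glycolytic cells, fell. It stood at 55.7, 65.9, 58.5 and 67.2 CPM in wild-type libraries and at 30.2, 41.2, 49.6 and 48.3 CPM in mutants, with no overlap (1.46-fold lower, log2FC -0.55, SE 0.14, edgeR adjusted p = 0.00834).

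The row with the symbol *slc16a7*, the name of the high-affinity carrier MCT2, had 0 counts in all 8 libraries. Another row with the same name in capitals, SLC16A7 (ENSDARG00000098258), lies outside the rule by its spelling and was well counted, at 68.3 to 77.7 CPM in wild-type libraries and 44.6 to 54.2 CPM in mutants. It fell (log2FC -0.53, SE 0.08, edgeR adjusted p = 0.00019), as did a row spelled SLC16A3 (ENSDARG00000028583) at 13.8 to 15.3 CPM and 8.76 to 11.2 CPM (log2FC -0.56, SE 0.14, adjusted p = 0.0059). The other capital rows are SLC2A13 (log2FC -0.48, adjusted p = 0.132) and SLC16A6, with 3 counts in all, and these 4 rows were chosen after their values were seen. Reads shared by copies of near-identical sequence may have been split or dropped, which makes the counts of a and b copies uncertain.

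**Figure D2:**
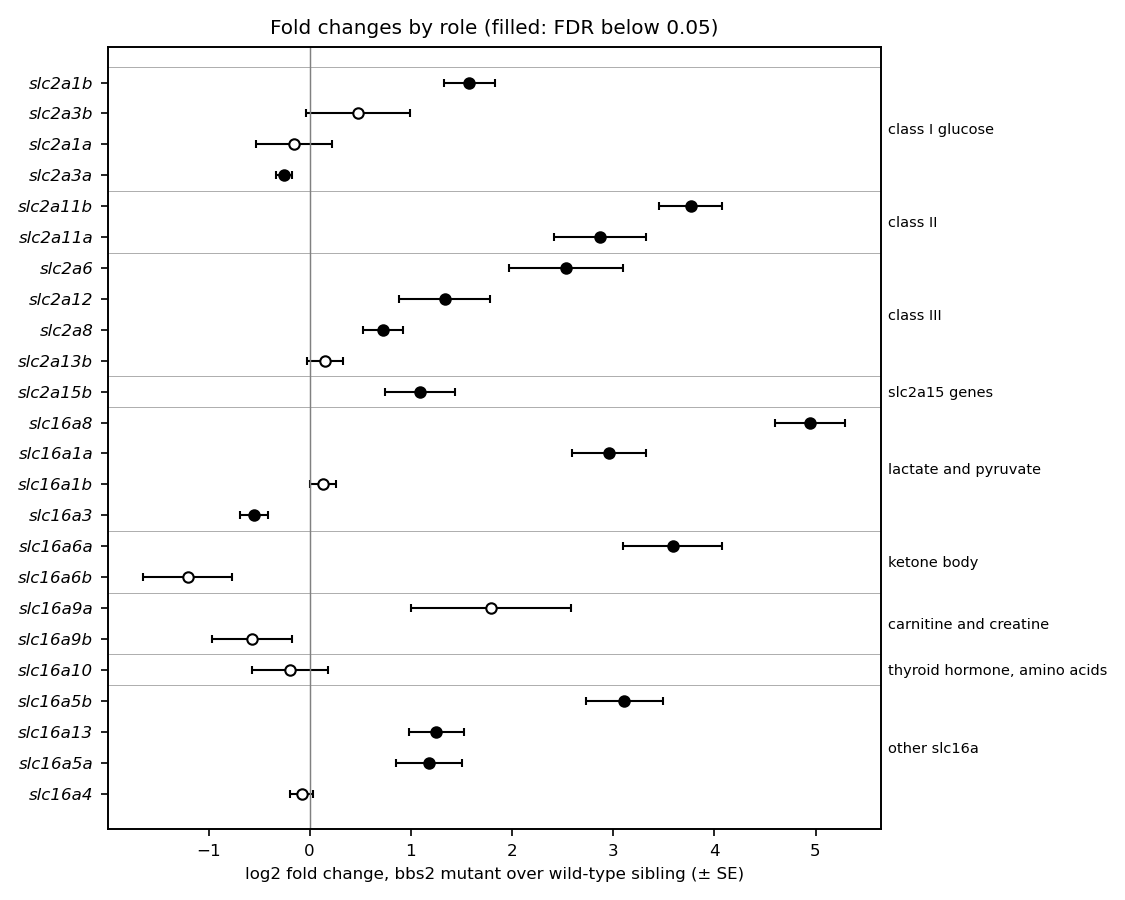
Log2 fold change of the 24 tested members, *bbs2* mutants over wild-type siblings, with the SE as bars and genes grouped by role; filled points have an FDR below 0.05. *slc16a8* has the largest value, 4.95, while *slc16a3* and *slc2a3a* are the filled points below 0.

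Among the ketone body carriers the a copy rose from near absence. *slc16a6a* (ENSDARG00000102793), which in zebrafish liver exports a ketone body, stood at 0.8289, 0.250, 0 and 0.506 CPM in wild-type libraries and at 3.70, 5.10, 4.35 and 5.35 CPM in mutants. From 11 counts over the wild-type libraries it rose to 179 over the mutants (log2FC 3.59, SE 0.49, edgeR adjusted p = 4.68e-05). The gene passed the filter on low counts through its mutant libraries alone, so the adjusted p is no independent evidence of a rise. The b copy *slc16a6b* (ENSDARG00000060246) was far more abundant, at 62.0, 50.5, 51.0 and 149.9 CPM in wild-type libraries and at 32.0, 42.7, 23.2 and 38.5 CPM in mutants. All mutants lay below all wild-type libraries, but with wild-type 4 so far above its group the difference was not called (log2FC -1.21, SE 0.44, adjusted p = 0.0936). Without wild-type 4 the log2FC was -0.68 (adjusted p = 0.0214), and the gene was called with DESeq2 (0.0281) and with limma-voom (0.0196).

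The same library stood out in both copies of *slc16a9*, a carnitine carrier in mammals. *slc16a9a* (ENSDARG00000013926) stood at 1.16, 2.63, 3.17 and 20.3 CPM in wild-type libraries and at 30.1, 28.9, 14.3 and 23.9 CPM in mutants. Wild-type 4 fell within the mutant range, and the difference was not called (log2FC 1.79, SE 0.79, edgeR adjusted p = 0.153; 3.32 and adjusted p = 0.000109 without wild-type 4). The gene needed mutant libraries to pass the filter on low counts, and wild-type 4 is the wild-type library nearest the mutants. The smaller p is therefore no independent evidence of a rise. *slc16a9b* was at 50.8 CPM in wild-type 4 and at 15.1 to 22.5 CPM in the others, against 14.7 to 23.1 CPM in mutants (log2FC -0.57, SE 0.39, adjusted p = 0.349; -0.07 and adjusted p = 0.814 without wild-type 4).

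Of the remaining slc16a genes, the copies of *slc16a5*, related to MCT6, both rose. *slc16a5b* (ENSDARG00000102668) stood at 2.49, 2.13, 1.71 and 5.31 CPM in wild-type libraries and at 20.5, 31.3, 16.1 and 34.0 CPM in mutants (8.64-fold, log2FC 3.11, SE 0.38, edgeR adjusted p = 0.000288). The groups were wide apart, with mutant 3 the lowest mutant. *slc16a5a* ran from 1.098 to 2.13 CPM and from 2.78 to 5.14 CPM (log2FC 1.18, SE 0.33, adjusted p = 0.0126, and adjusted p = 0.058 without mutant 1). As *slc16a5a* needed mutant libraries to pass the filter on low counts, its p is no independent evidence of a rise. *slc16a13*, a lactate carrier in mammals, stood at 2.82, 2.25, 2.07 and 3.67 CPM in wild-type libraries and at 6.58, 8.57, 6.17 and 4.28 CPM in mutants (2.38-fold, log2FC 1.25, SE 0.27, adjusted p = 0.00233). *slc16a4* (log2FC -0.08, adjusted p = 0.653; 0.0209 with library totals) and *slc16a10*, an aromatic amino acid and thyroid hormone carrier (-0.19, adjusted p = 0.752), were not called.

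Markers of pigment epithelium and of microglia were also higher in mutants. Of 20 tested pigment epithelium markers 17 rose and 0 fell (18 had an unadjusted p under 0.05), with a median log2FC of 3.16. All 14 tested microglia markers rose, with a median of 2.06, where 15.2% of all tested genes rose. Some markers needed mutant libraries to pass the filter on low counts. Examples are *tyr* (0.379 to 0.610 CPM in wild-type libraries), *irf8* (0.50 to 1.99 CPM) and *spi1b* (0.75 to 1.26 CPM). The tested markers of both lists are therefore not a neutral sample, and their counts and medians are no independent evidence of a rise. The visual cycle gene *rpe65a* stood at 50.4, 30.1, 17.4 and 79.9 CPM in wild-type libraries and at 746.5, 672.4, 464.7 and 660.6 CPM in mutants, a ratio of group means of 14.3. The pigment gene *tyrp1b* had a ratio of 19.6 and *dct* of 13.1, while among the listed pigment epithelium markers *ttr* had no count. Among microglia markers the ratio was 4.40 for *mpeg1.1* and 3.69 for *csf1ra*.

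Mutant 3 had the lowest summed level of either marker list among mutants, at 1913 CPM and 286.5 CPM, and was the lowest mutant for 8 of the 13 transporters that rose. It was also the lowest mutant for 52.8% of all 2603 genes that rose. Without mutant 3 the same number of transporters, 13, rose. Wild-type 4 had the highest summed pigment epithelium level of its group, 688.8 CPM. It was the highest wild-type library for 5 of the 13 transporters that rose and for 7 of the other 11 tested, beside 25.5% of all tested genes. Summed Müller glia markers ran from 1788 to 2263 CPM in wild-type libraries and from 1907 to 1956 CPM in mutants, and summed endothelial markers from 176.0 to 205.6 CPM and from 202.8 to 234.6 CPM. Single markers did move. Of 11 tested Müller glia markers 3 rose and 2 fell, a share called of 45.45%. Of 11 tested endothelial markers 3 rose and 1 fell (36.36%), beside 28.1% called of all tested genes. Summed retinal neuron markers were lower in mutants, at 4521 to 4998 CPM in wild-type libraries and 3985 to 4393 CPM in mutants. Of 20 tested neuron markers 7 fell and 0 rose (35%), where 13% of all tested genes fell. Of 21 tested rod markers 5 rose and 2 fell (33.33%). The part of other cell types in the transporter changes was not tested. How much pigment epithelium stayed on each retina at dissection is not given. A different amount of it between the groups and a change within retinal cells therefore cannot be told apart.

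**Figure D3:**
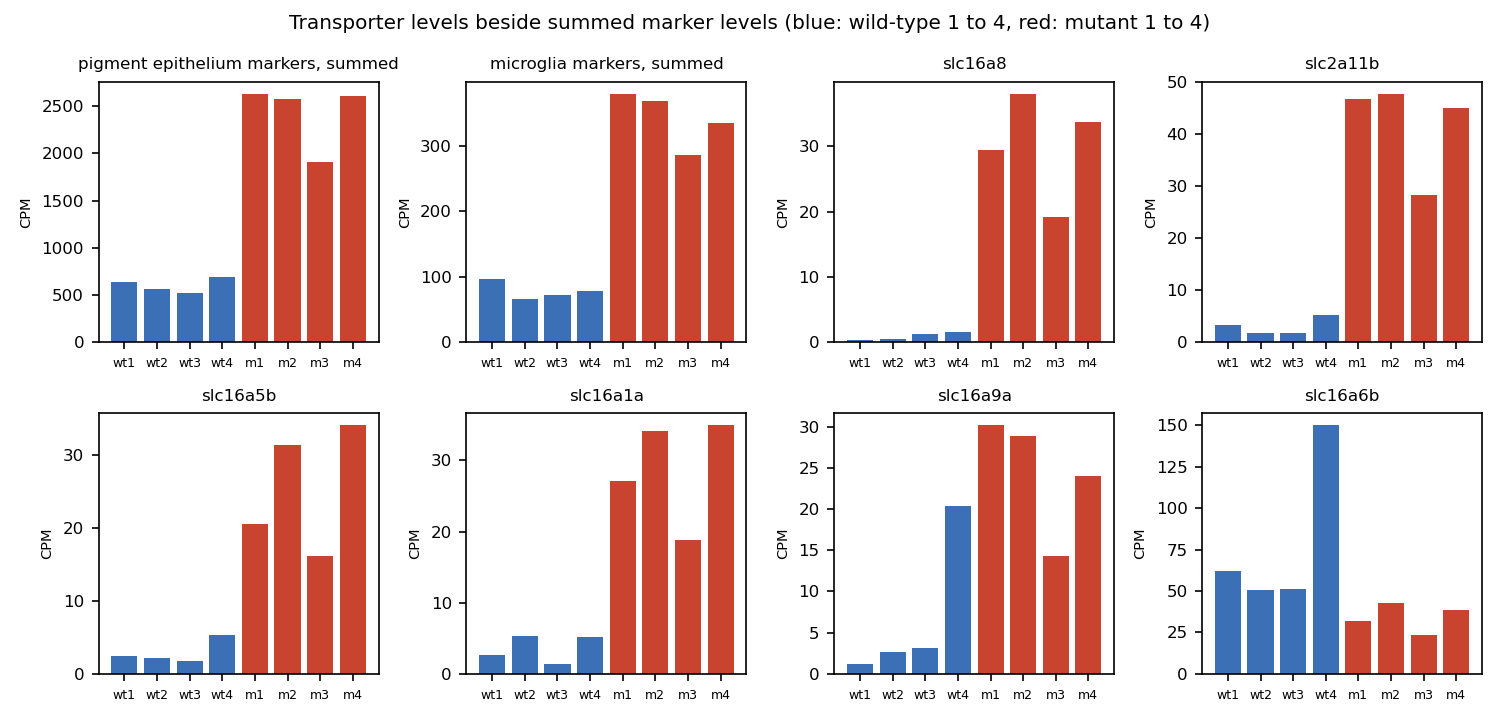
Bars give the summed CPM of pigment epithelium markers and of microglia markers and the CPM of 6 transporter genes in wild-type libraries 1 to 4 (blue) and mutants 1 to 4 (red), with an axis from 0 in each panel. Mutant 3 is the lowest red bar in each panel, and wild-type 4 stands above the other blue bars for *slc16a9a* (20.3 CPM) and *slc16a6b* (149.9 CPM). The genes shown are a selection, and *slc16a9a* and *slc16a6b* were not called. Mutant 3 was the lowest mutant for 8 of the 13 transporters that rose, beside 52.8% of all genes that rose.

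Levels per transcript length, as the authors' TPM, show which members of the rule are most abundant. *slc2a1a* led the slc2a family at 292.5 ± 151.7 TPM (SD, n = 4) in wild-type libraries and 265.1 ± 21.5 TPM in mutants, followed by *slc2a1b* at 46.1 ± 9.53 and 141.2 ± 43.4 TPM and *slc2a3a* at 32.6 ± 2.23 and 27.7 ± 2.39 TPM. In mutants *slc2a11b*, at 27.7 ± 7.65 TPM, could not be told from *slc2a3a*, while in wild-type libraries it was at 1.96 ± 0.97 TPM. Of the summed TPM of the family, *slc2a1a* made up 72.3 ± 13.3% in wild-type libraries and 54.7 ± 5.39% in mutants. The share of *slc2a1b* was 14.0 ± 8.28% and 28.2 ± 5.29%. Wild-type 1, with 54.1% and 25.7%, lay within the range of the mutants for both shares.

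The members of the slc16a family were more evenly spread, and their order changed more. These ranks, shares and sums leave out the rows spelled in capitals. Of those, SLC16A7 was at 91.02 ± 4.995 TPM in wild-type libraries and 63.55 ± 2.694 TPM in mutants, above every slc16a member. SLC16A3 was at 17.75 ± 0.8665 and 12.21 ± 1.107 TPM. In wild-type libraries *slc16a3* led the members at 36.4 ± 3.196 TPM, followed by *slc16a6b* (29.0 ± 16.8), *slc16a9b* (19.3 ± 10.9), *slc16a1b* (18.6 ± 3.18) and *slc16a4* (13.3 ± 1.32). Neighbours in that order overlapped in their ranges except *slc16a1b* and *slc16a4*. In mutants *slc16a3* (25.1 ± 3.88 TPM) was followed by *slc16a8* (22.0 ± 6.43), *slc16a5b* (20.9 ± 7.20), *slc16a1b* (20.8 ± 2.38) and *slc16a1a* (20.6 ± 5.91), which did not differ beyond their spread. *slc16a8* made up 0.484 ± 0.266% of the family's TPM in wild-type libraries and 12.5 ± 1.83% in mutants, and *slc16a6b* 21.3 ± 5.61% and 7.45 ± 0.896%, with no overlap in either. The summed TPM of the family ran from 103.0 to 187.8 in wild-type libraries and from 126.2 to 192.4 in mutants, which overlap.

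**Figure D4:**
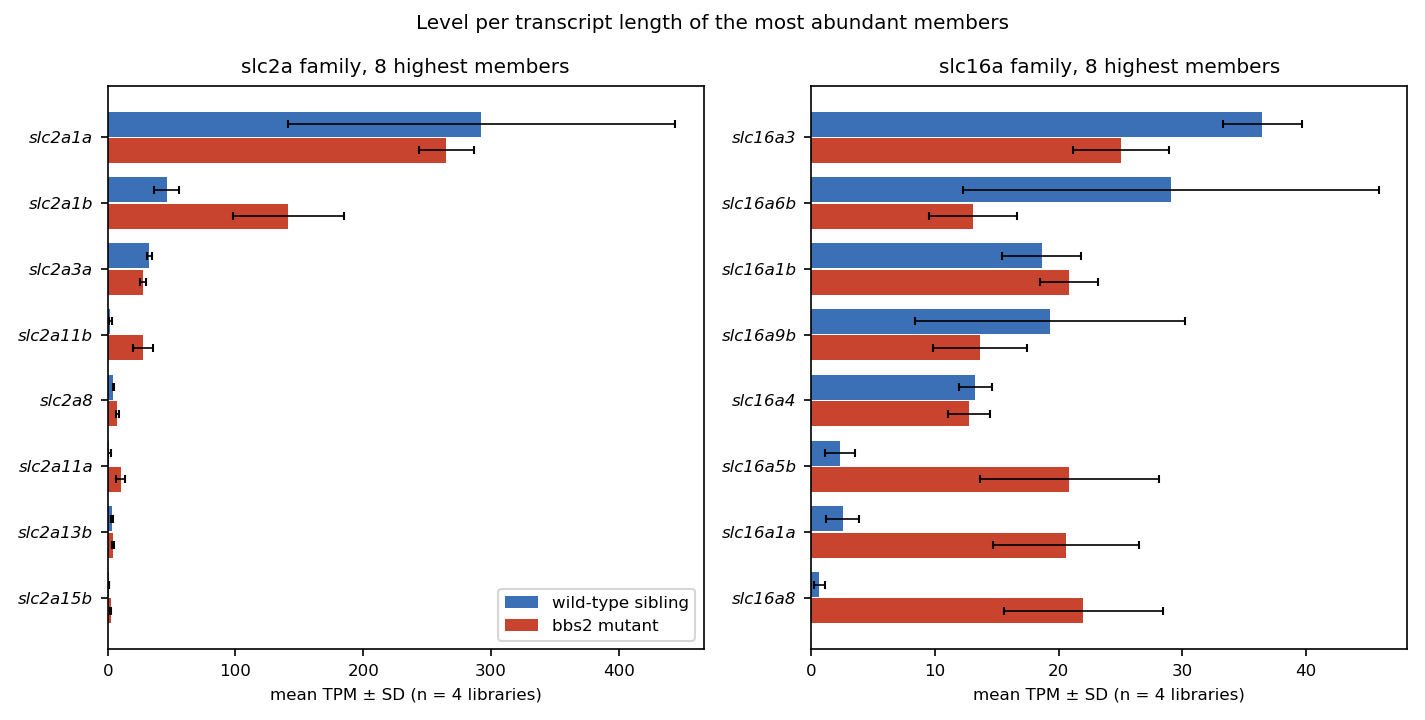
Mean TPM of the 8 most abundant members of each family with the SD over 4 libraries as bars, blue for wild-type siblings and red for *bbs2* mutants, on axes from 0. *slc2a1a* is the longest bar of the slc2a family in both groups (292.5 and 265.1 TPM), and *slc16a8*, the lowest of the 8 in wild-type libraries, reaches 22.0 TPM in mutants.

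The balance between a and b copies was compared within each library, where the scaling between libraries cancels. There were 7 pairs with both copies tested, and the test, an exact permutation test of the log2 ratio of b over a counts with 0.5 added to each, two-sided and adjusted over the 7 pairs, was chosen after the data were seen. The ratios use the same counts as the tests above and are not independent of them. With 4 libraries against 4, the smallest p of the test, 0.0286, is reached where the groups do not overlap. For *slc16a1* the ratio went from 1.76 to 4.03 in wild-type libraries to -0.52 to 0.32 in mutants, so that the b copy led in wild-type retinas and the copies were near parity in mutants (difference -2.96, exact permutation adjusted p = 0.04). The ratio also differed for *slc16a5* (difference 2.03), *slc16a9* (-3.02) and *slc2a11* (0.78), each with no overlap and at exact permutation adjusted p = 0.04. *slc16a5a* and *slc16a9a* needed mutant libraries to pass the filter on low counts, which favours a lower ratio in mutants. That is the direction seen for *slc16a9*, whose p is thus no independent evidence, while the *slc16a5* ratio was higher in mutants. Leaving out single mutants brought the unadjusted exact permutation p to 0.0571 for *slc16a5* (mutants 2 and 4), *slc16a9* (mutants 1, 2 and 4) and *slc2a11* (any mutant), with differences of 1.80 or more, -2.81 or lower and 0.73 or more. The groups still did not overlap in these cases. With groups of unequal size another arrangement of the libraries can give as large a difference, so this p does not show a weaker separation. For *slc16a6* no difference is given, since the a copy had 5, 2, 0 and 4 counts in wild-type libraries and passed the filter through its mutant libraries alone, which fixes the direction of the ratio. The adjustment over the 7 pairs still includes *slc16a6* and *slc16a9*, whose small p lowers the adjusted p of the other pairs.

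For *slc2a1* the log2 ratio of b over a was -0.99, -3.36, -3.13 and -2.25 in wild-type libraries and -0.79, -0.74, -1.50 and -0.50 in mutants. Wild-type 1 overlapped with the mutants, and the difference of 1.55 was at exact permutation adjusted p = 0.0666. Without wild-type 1 the difference was 2.03 (exact permutation p = 0.0286, unadjusted), and without any other library it ran from 1.24 to 1.76 (unadjusted exact permutation p = 0.0571 to 0.114). The *slc2a3* ratio overlapped between groups (difference 0.90, exact permutation adjusted p = 0.371, and 0.42 to 1.42 without any 1 library).

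**Figure D5:**
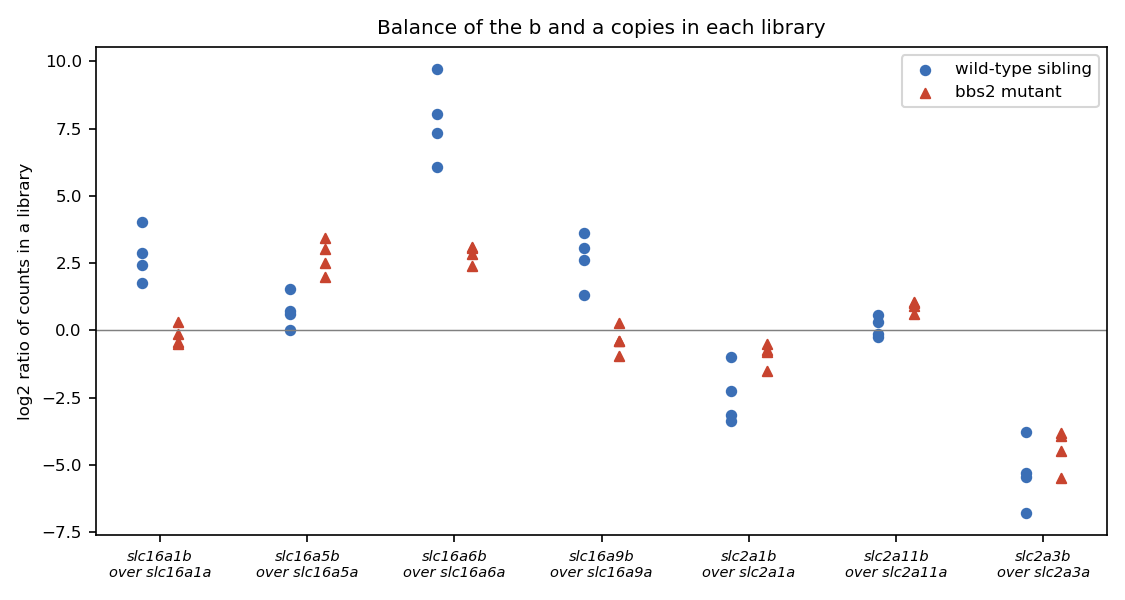
Log2 ratio of the counts of the b copy over the a copy in each of 8 libraries, for 7 pairs of copies, with circles for wild-type siblings and triangles for *bbs2* mutants; the grey line marks equal counts. The *slc16a6* ratio in wild-type 3 rests on 0 counts of the a copy and the 0.5 added. The *slc16a1* ratio is at 1.76 or above in wild-type libraries and at 0.32 or below in mutants.

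The lists of genes around these carriers had shares called near that of all tested genes, though single genes such as *ca9* (log2FC 5.04) moved far. With group means of 1.16 CPM in wild-type libraries and 37.7 CPM in mutants, *ca9* needed mutant libraries to pass the filter on low counts. Its call is therefore no independent evidence of a rise. Of 12 tested partners and regulators 1 rose and 2 fell, a share called of 25%, beside 28.1% of all tested genes. The partner that rose is *txnipa*, a copy of TXNIP, which in mammals drives GLUT1 off the cell surface (19.2 to 66.5 CPM as group means, log2FC 1.79, SE 0.18, edgeR adjusted p = 2.78e-05). *nxnl1*, the gene for rod-derived cone viability factor, which in mice stimulates cone glucose uptake through basigin and GLUT1, fell (log2FC -0.79, SE 0.11, adjusted p = 7.65e-05), as did *emb* (-0.57, SE 0.18, adjusted p = 0.0242), an escort protein of MCTs. Basigin itself, the main escort of MCT1, MCT3 and MCT4, is encoded by *bsg* and was not called (278.4 and 272.0 CPM, log2FC -0.03, SE 0.07, adjusted p = 0.76). Leaving out wild-type 3 brought the calls of this list from 3 to 5.

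Of 30 tested genes of glycolysis and lactate production 3 rose and 6 fell, with a median log2FC of -0.15. Among those that rose were *hk2*, a hexokinase gene (1.34), and *pgam1a* (0.56), while *pfkmb*, of the phosphofructokinase step (-1.24), *aldocb* (-0.44) and *pkma*, of pyruvate kinase (-0.46), fell at the smallest p of the 6, which also hold *ldha*, of lactate dehydrogenase (-0.41, edgeR adjusted p = 0.0146). Of 7 other tested carriers of glucose, lactate and pyruvate, *slc45a4b* (0.77) and *slc5a11*, of the sodium-coupled sugar carriers (1.45), rose, a share called of 28.6% that is near the 28.1% of all tested genes. With a mean of 1.18 CPM in wild-type libraries, *slc5a11* needed mutant libraries to pass the filter on low counts. Its call is no independent evidence of a rise. The mitochondrial pyruvate carrier genes *mpc1* (log2FC -0.23, adjusted p = 0.132) and *mpc2* (-0.09, adjusted p = 0.53) were not called.

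Of 28 tested hypoxia factors and targets 3 rose and 6 fell, with a median log2FC of -0.22, which is of interest here because GLUT1 and MCT4 genes are hypoxia targets in mammals. The carbonic anhydrase gene *ca9* (5.04), the growth factor gene *vegfab* (1.03) and *hif1ab* (0.24) rose, and *pfkfb3* (-0.95), *pdk3b* (-0.63) and *egln2* (-0.43) fell at the smallest p. Of these, *ca9* needed its mutant libraries to be tested. The share called, 32.1%, is near the 28.1% of all tested genes, and so is that of the glycolysis genes, 30%. By direction, each of these lists had 6 genes that fell and 3 that rose. Among all tested genes 13% fell and 15.2% rose.

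The 9 members that were not tested were low in every library, with at most 13 counts in any. *slc2a10* had 15 counts over the wild-type libraries and 40 over the mutants, *slc16a12b* 9 and 36, and *slc16a12a* 8 and 22. *slc2a2*, the liver-type glucose transporter, had 6 and 11 counts, *slc2a11l* 11 and 11, *slc2a5*, of the fructose carriers, 2 and 5, and *slc2a15a* 1 and 1. *slc16a7* and *slc2a9l1* had none, where up to 3 counts over the 8 libraries could go unseen.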

How the data were processed

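Retinal RNA of 4 *bbs2* mutants and 4 wild-type siblings was depleted of ribosomal RNA and read from stranded libraries as read pairs. The authors aligned reads to GRCz11 with the STAR aligner and an Ensembl annotation and deposited raw gene counts, used for all tests. The sources used here do not give the strand setting or the treatment of multiply aligned reads. The authors also deposited TPM, made with a tool the sources do not name and used for levels between genes and as an alternative, a normalized signal (not used) and a DESeq2 1.30.1 comparison with fold changes, standard errors and p-values (not used).

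Counts of all genes were tested with edgeR 4.0.16 (R 4.3.3), quasi-likelihood with robust fitting, TMM scaling, filterByExpr (minimum count 10), a single genotype term and p-values adjusted after Benjamini-Hochberg (FDR 0.05). Replicates differed beyond sampling noise (chi-square per degree of freedom 5.51 to 12.6); labels call them biological. CPM values are counts over TMM-scaled library sizes. Each SE of an edgeR log2FC is the absolute log2FC over the square root of the quasi-likelihood F statistic. It is thus derived from the test and was not estimated separately. Alternatives were library totals, DESeq2 size factors, DESeq2 1.42.0, limma-voom (limma 3.58.1), no filter or at least 10 counts in every library, limma on log2(TPM + 0.1) and log2(TPM + 1), the replicate number as a block, and leaving out each library. The scripts were tested on simulated data.

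Named genes are members called (by counts instead of CPM where mean log2 CPM was under 1, except where CPM showed the libraries better), members not called whose mean TPM was among the 5 highest of their family or whose copy was called, and up to 3 called genes per direction of each pathway list, by smallest p. *bsg*, *ldha*, *mpc1*, *mpc2*, the uncalled members outside this rule and the marker genes named singly were chosen after their values were seen. Members and lists were chosen with earlier results of these data known. No genome coordinates are given, since the gene table at hand is of another assembly. The values of 1 called gene of the glycolysis list are not reported here.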

Additional observations from a re-analysis of the deposited data

Results flagged for a closer look

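With 4 libraries in a group, a library counted as far from the others where its gap to the nearest of them, over the range of the group, passed Dixon's critical value, which chance reaches in about 1 of 20 groups. Of 66 groups examined 6 passed it. Wild-type 4 lay above its group for *slc16a6b* (149.9 CPM, the others 50.5 to 62.0 CPM) and for *slc16a9a* (20.3 CPM, the others 1.16 to 3.17 CPM). Mutant 3 lay below its group for *slc2a11b* (28.3 CPM, the others 44.9 to 47.6 CPM) and for the summed pigment epithelium markers (1913 CPM, the others 2574 to 2628 CPM). Mutant 1 lay below its group for *slc16a10* (0.926 CPM, the others 1.60 to 1.65 CPM), a gene of 9 to 19 counts a library. Wild-type 1 had the lowest total of gene counts of its group (6279179, the others 8227419 to 8442827).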

How the results depend on the processing

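The count of 13 transporters that rose was 7 under the stricter filter (no library under 10 counts), where only 15 members were tested, 10 to 13 without any 1 library, and within 1.5 times of 13 under the other alternatives. The count of 2 that fell was 1 with library totals and 1 on log2 TPM with either pseudocount, and 1 to 3 without any 1 library. *slc2a1a* turned positive on log2(TPM + 0.1) (0.0223) and log2(TPM + 1) (0.0215) and ran from -0.40 to 0.17 without any 1 library, positive without wild-type 2, and *slc16a4* turned positive with library totals (0.0209), neither called in any setting; the cause was not tested. Of all genes 2221 fell, 1335 with library totals, 1410 with log2(TPM + 0.1) and 1427 with log2(TPM + 1). Other carriers called were 2, and 1 under the stricter filter. Without any 1 library the calls among partners and regulators ran from 2 to 5, and the ratio of total counts from 1.13 to 1.31. On log2(TPM + 1), which understates low genes, *slc2a6* was at 0.62 and *slc16a6a* at 1.27.

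Replicate numbers are shared by label only. Same-numbered libraries correlated at -0.07 to 0.06 after removal of group means, and 4 of 8 libraries correlated best with their own number. With the replicate block 11 transporters rose and 2 fell, as *slc2a12* (adjusted p = 0.0537) and *slc2a15b* (0.0556) were no longer called. Depth limits what can be said of members under about 10 counts a library.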
